A study of Homo sapiens with 2 samples.

Results

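The AP-1 and small MAF factors were followed in bort-treated and untreated cells labelled THP1. Their members were the rows of the deposited gene table named JUN, JUNB, JUND, FOS, FOSL1, FOSL2, MAFF, MAFG or MAFK, and all 9 were listed among 10987 genes. RNA was sequenced from 2 cultures labelled THP1, 1 exposed to bortezomib (bort), an inhibitor of the proteasome, for 24 h and 1 left untreated. THP1 is known as a monocytic leukaemia line, and the paper describes it as carrying the MLL-AF9 fusion. The dose given to the sequenced culture is not given in the sources used here. Each condition has 1 library, so no difference below has a replicate check, no p-value is given, and every comparison is between these libraries. Levels are FPKM, that is fragments corrected for transcript length and for the number mapped in a library, which allows levels of different genes to be set side by side. Differences are bort-treated minus untreated in log2(FPKM + 1), on which differences of low-level genes come out too small, and a gene was called higher or lower when this difference reached 1, that is 2-fold.

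AP-1 is a dimer of basic leucine zipper proteins. JUN proteins pair with each other or with FOS proteins and bind a short palindrome in promoters and enhancers, and their genes are known as immediate early genes that answer growth signals and stress within minutes through MAP kinases. The small MAF proteins have the same kind of DNA-binding and zipper region but no transactivation domain. They act as obligate partners of the CNC proteins (NFE2, NRF1, NRF2 and NRF3) and of the BACH repressors at the antioxidant response element and the related element of globin gene control regions. NRF1, encoded by NFE2L1, is the factor known to drive proteasome genes when the proteasome is inhibited.

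The labelled cell type and the markers in the table did not go together. Whether the sequenced cells were THP1, and carried the MLL-AF9 fusion, was not tested. All 12 erythroid markers looked up were listed, with a summed level of 5006 FPKM in the untreated and 4409 FPKM in the bort-treated library. Only 6 of 12 markers of monocytes and myeloid cells were listed, with sums of 24.8 and 64.4 FPKM, and CD14, CSF1R and MPO were among those not listed. LYZ was the highest of these in the untreated library, at 7.61 FPKM, and stood at 28.7 FPKM in the bort-treated library. The monocytic sum thus moved in the same direction as several members below, and its part in their differences was not tested. In bulk RNA a change in the number of cells of a type and a change in RNA per cell cannot be told apart.

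Of the 9 members, 3 were higher by 2-fold or more in the bort-treated library, JUN, FOSL1 and FOSL2, and 0 were lower. Over all listed genes 8.08% were higher and 10.2% lower by this rule. The median difference of the members was 0.54, against 0.0049 for all genes, and 8 of the 9 lay above 0. The table lists a gene only where it reached about 0.501 FPKM in at least 1 library. FOSL2 and MAFF lay below that level in the untreated library and are listed only through the bort-treated one, so they had to differ in this direction. Among the other 7 members, which reached the level in both libraries, 2 were higher by 2-fold or more and the median difference was 0.51, while 7.95% of the 10094 genes of that kind were higher.

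**Figure D1:**
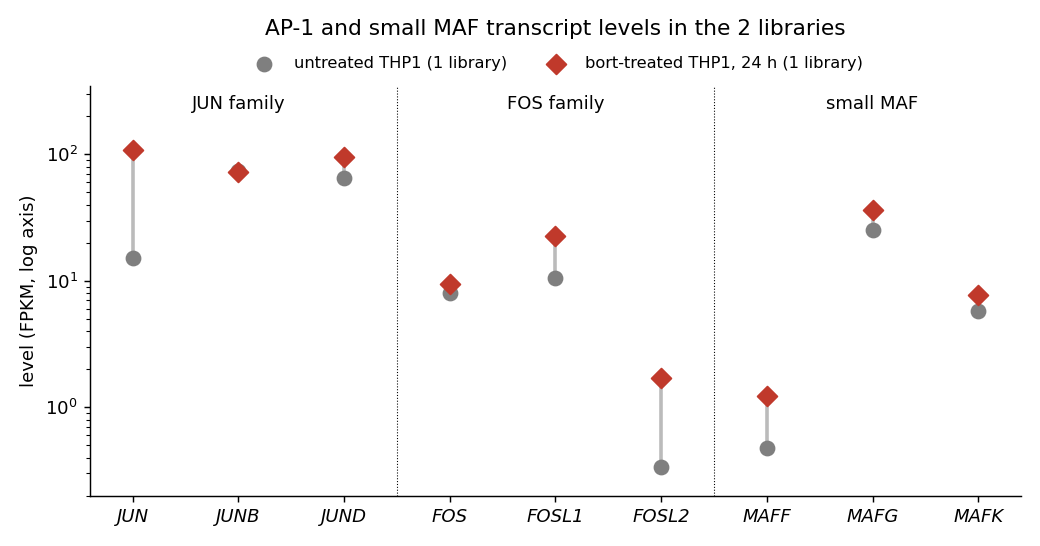
Level of each member in FPKM on a log axis, with a grey circle for the untreated library and a red diamond for the bort-treated library. JUN moves from 15.3 to 107.7 FPKM, JUNB lies at 74.6 and 72.3 FPKM, and FOSL2 and MAFF lie below 2 FPKM throughout.

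JUN carried the largest difference. The JUN gene (ENSG00000177606.6_2, chromosome 1), which encodes c-Jun, the AP-1 subunit with the strongest transactivation and the substrate of the JUN N-terminal kinases, was at 15.3 FPKM in the untreated and at 107.7 FPKM in the bort-treated library. The ratio of these levels was 7.06 and the difference 2.74 on the log2(FPKM + 1) scale. Only 23 of the 10987 genes had a larger difference. By level, JUN went from place 4 to place 1 among the members, and from rank 2751 to rank 233 among all genes. JUN is a gene of 1 exon and 1 transcript in GENCODE 29, so spliced and unspliced RNA, or genomic DNA, cannot be told apart by exon junctions at this gene.

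JUNB (ENSG00000171223.5_2, chromosome 19) encodes a JUN protein with weaker transactivation that can oppose c-Jun. It was at 74.6 FPKM in the untreated and at 72.3 FPKM in the bort-treated library, a difference of -0.044, and was the only member with a lower value after bort. That sign turned with upper quartile scaling (0.064), with scaling to the total without the 20 most abundant genes (0.069) and with the trend with GC content removed (0.59), so no direction is given for JUNB. JUND (ENSG00000130522.5_3, chromosome 19), the JUN protein that resting cells hold in quantity, was at 64.7 FPKM in the untreated and at 94.8 FPKM in the bort-treated library. Its difference of 0.54 was short of 2-fold. JUNB, like JUN, has 1 exon, and JUND has at most 2 in its coding transcripts.

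The make-up of the JUN family changed between the libraries. The summed level of the 3 JUN genes was 154.6 FPKM in the untreated and 274.8 FPKM in the bort-treated library. Of that sum JUN held 9.87% in the untreated and 39.2% in the bort-treated library, while JUNB went from 48.3% to 26.3% and JUND from 41.9% to 34.5%. The ratio of JUN to JUNB was 0.204 without and 1.49 with bort. A share or ratio within a library does not move when the libraries are scaled against each other, so this shift in make-up is the same under every scaling tried. It does move when the trend with GC content is removed, since the 3 genes differ in GC content, and JUN then still had the largest difference of the family, at 3.07 against 1.41 for JUND and 0.59 for JUNB.

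**Figure D2:**
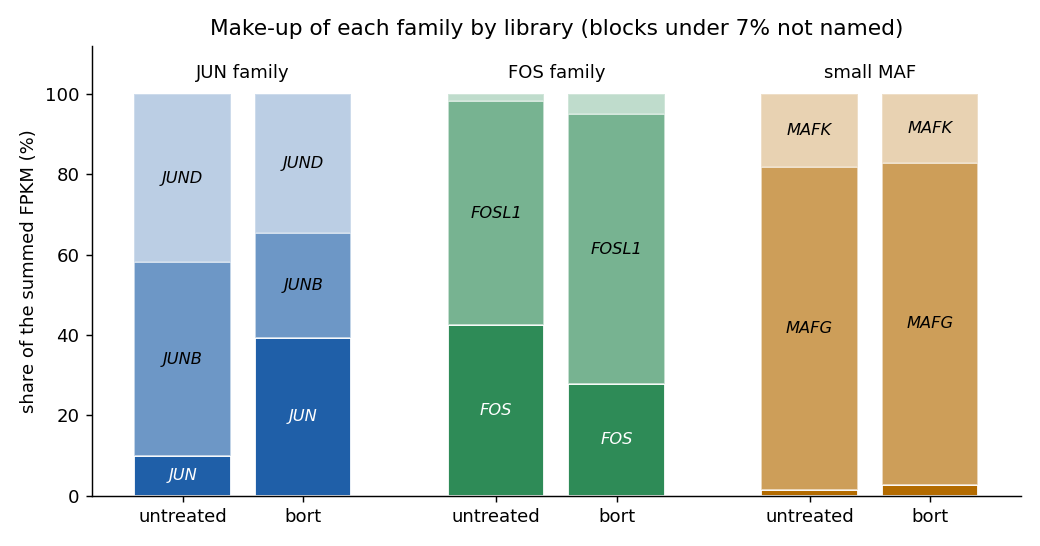
Share of the summed FPKM of each family held by each of its genes, in percent, for the untreated library and the library treated with bort; blocks under 7% (FOSL2 and MAFF) carry no name. JUN grows from 9.87% to 39.2% of its family, FOSL1 from 55.7% to 67.2%, and MAFG stays at 80.3% of the small MAF sum.

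The FOS proteins cannot pair with themselves and need a JUN protein. FOS itself (ENSG00000170345.9_3, chromosome 14), the prototype of the immediate early genes, was at 7.98 FPKM in the untreated and at 9.43 FPKM in the bort-treated library, a difference of 0.22. FOSL1 (ENSG00000175592.8_3, chromosome 11) encodes FRA-1, which lacks the C-terminal transactivation domain of c-Fos and is itself a known AP-1 target. Its level was 10.5 FPKM in the untreated and 22.8 FPKM in the bort-treated library. The difference of 1.06 put FOSL1 just past 2-fold, at rank 768 of all genes. FOSL2 (ENSG00000075426.11_3, chromosome 2), which encodes FRA-2, was at 0.337 FPKM in the untreated and at 1.70 FPKM in the bort-treated library. Its levels had a ratio of 5.05, and its difference was 1.02 with the pseudocount of 1 FPKM and 2.34 without a pseudocount. With such low levels and no read counts, the counting error of FOSL2 cannot be given.

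FOSL1 was the most abundant FOS gene of the 3 in both libraries. It held 55.7% of their summed 18.8 FPKM in the untreated library and 67.2% of 33.9 FPKM in the bort-treated library, and the share of FOS went from 42.5% to 27.8%. The ratio of FOSL1 to FOS was 1.31 and 2.42. The JUN and FOS sums stood in nearly the same proportion in both libraries, 8.23 in the untreated and 8.09 in the bort-treated, so transcripts of JUN genes outnumbered those of FOS genes alike with and without bort. The FOS gene outside the rule, FOSB, was at 1.97 FPKM in the untreated and at 1.80 FPKM in the bort-treated library.

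The summed level of the small MAF genes had a ratio of 1.44 between the libraries, against 1.78 for the JUN and 1.81 for the FOS genes. MAFG (ENSG00000197063.10_3, chromosome 17), the most abundant of them, was at 25.4 FPKM in the untreated and at 36.6 FPKM in the bort-treated library, a difference of 0.51. MAFK (ENSG00000198517.9_3, chromosome 7), the partner of NFE2 described in red cell precursors, was at 5.74 and 7.77 FPKM, a difference of 0.38. MAFF (ENSG00000185022.11_3, chromosome 22), the small MAF gene known to be induced by stress and cytokines, was at 0.476 FPKM in the untreated and at 1.22 FPKM in the bort-treated library, a ratio of 2.56 and a difference of 0.59. None of the 3 reached 2-fold on this scale. MAFF passed it with a pseudocount of 0.1 FPKM, without a pseudocount (1.36) and with the GC trend removed (1.09). Their summed level was 31.6 FPKM in the untreated and 45.6 FPKM in the bort-treated library, and MAFG held 80.3% of it in both.

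**Figure D3:**
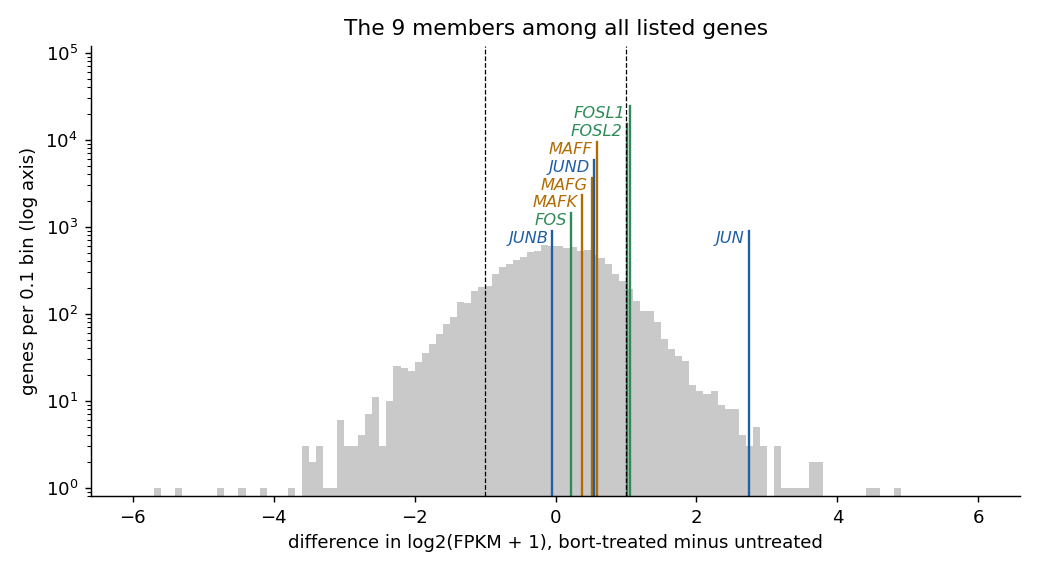
Histogram of the difference in log2(FPKM + 1) for all 10987 listed genes in bins of 0.1, with the number of genes on a log axis, a labelled line for each member and dashed lines at 2-fold. JUN stands in the right tail at 2.74, FOSL1 and FOSL2 sit at the dashed line, and the other 6 lie between -0.044 and 0.59.

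All 9 members have transcripts richer in GC than the median listed gene, which has 48.6% GC over its longest transcript in GENCODE 29. Their GC content ran from 52.6% for FOS to 69.7% for JUND. GC content also went along with the differences of all genes. Of the 1698 genes with 60% GC or more, 2.06% passed 2-fold upwards and 28.6% downwards, with a median difference of -0.55. Of the 9 members, 5 belong to these genes (JUNB, JUND, FOSL1, MAFF and MAFK). Once the GC trend was taken out, all 9 members lay above the median of all genes and 5 were higher by 2-fold or more, JUN, JUND, FOSL1, FOSL2 and MAFF, while 7.04% of genes were. Among these, FOSL2 and MAFF are listed only through the bort-treated library, so they had to differ in this direction before the trend was removed. JUND then stood at 1.41, MAFK at 0.95 and MAFG at 0.85.

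The 3′ untranslated regions of these mRNAs share an AU-rich motif of the kind known from short-lived mRNAs. The heptamer TATTTAT, searched on the mRNA strand in the coding transcript with the longest open reading frame in GENCODE 29, occurs in 8 of the 9 members, in all but JUNB. It occurs in 30.0% of the 10761 listed genes with such a region, whose median length is 935 bases. MAFG has 4 copies in 4335 bases, FOSL2 has 2 in 4864 bases, FOS has 2 in 806 bases and MAFF has 2 in 1633 bases. JUN has 1 copy in 1287 bases, as do JUND in 681 bases, FOSL1 in 666 bases and MAFK in 2668 bases. JUN, with the largest difference, has 1 copy and MAFG, short of 2-fold, has 4.

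Promoter windows of RefSeq (GRCh38.p14, 250 bases before to 50 bases after the start site) matched 7 members, all but FOSL1 and MAFK, with a pair of windows for MAFF. Windows of JUN and JUND and the upstream MAFF window hold TGACNTCA, searched on either strand, and the other MAFF window does not. This element, the form bound by JUN and ATF2 dimers and by CREB, was found in 7.72% of 35116 windows. It lies 67 bases before the start site in JUN, as TGACATCA, 200 bases before it in JUND and 54 bases before it in the upstream MAFF window, both as TGACGTCA. The shorter AP-1 site TGANTCA, which shares the outer letters but does not overlap these matches, was found in FOSL2 alone, after the start site, against 7.71% of windows. These 4 stretches of 120 bases are shown because they set the JUN promoter, with the largest difference, beside JUNB, with a difference near 0, and beside the other members that hold the element. Capitals mark TGACNTCA, and each stretch is written 5′ to 3′ on the strand of its gene. JUN (chr1:58784048-58784167, minus strand), JUNB (chr19:12791366-12791485, plus strand) and MAFF (chr22:38201874-38201993, plus strand) show the last 120 bases before the start site, and JUND (chr19:18281753-18281872, minus strand) shows the 120 bases that begin 250 bases before it.
JUN: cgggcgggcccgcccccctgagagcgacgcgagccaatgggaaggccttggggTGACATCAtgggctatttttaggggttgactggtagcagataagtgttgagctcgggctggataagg
JUNB: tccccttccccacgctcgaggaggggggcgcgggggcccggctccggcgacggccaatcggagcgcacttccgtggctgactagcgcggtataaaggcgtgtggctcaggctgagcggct
JUND: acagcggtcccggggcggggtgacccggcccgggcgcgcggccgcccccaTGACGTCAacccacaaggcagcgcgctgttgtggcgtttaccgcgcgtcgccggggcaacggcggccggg
MAFF: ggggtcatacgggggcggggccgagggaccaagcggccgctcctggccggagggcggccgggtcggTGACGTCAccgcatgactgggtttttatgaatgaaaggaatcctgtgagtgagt

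The JUN stretch also holds a CCAAT box 87 bases before the start site, as JUNB does at 67 bases and JUND at 74 bases. The upstream MAFF window has one at 234 bases. The letters CCAAT occur in 34.6% of windows on either strand. The antioxidant response element core TGACNNNGC was found in JUND and the upstream MAFF window, against 13.3% of windows. The heat shock element pair GAANNTTC was found in JUN alone, 150 bases before the start site, against 6.77%. A match is a description of letters, and the RNA data do not show whether a protein was bound.

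Other AP-1 and related basic leucine zipper genes were looked up from a list of 10, of which 8 were listed. Of these, 2 were higher by 2-fold or more and 0 were lower (all genes: 8.08% and 10.2%), with a median difference of 0.38. JDP2 is listed only through the bort-treated library, and over the other 7 genes the median was 0.30. This list and those below were chosen with earlier results of these data known, so their counts are a description and not a test. ATF3, a stress-induced partner of JUN, was at 1.77 FPKM in the untreated and at 9.22 FPKM in the bort-treated library, a difference of 1.88. ATF2, the partner of JUN at the element shown above, was at 5.32 and 14.7 FPKM, a difference of 1.32 that became 0.80 with the GC trend removed. The most negative value was that of BATF2, from 3.65 to 1.66 FPKM, a difference of -0.81.

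The partners of the small MAF proteins went in different directions. All 7 genes for CNC and BACH proteins and KEAP1 were listed. Called higher were 2 and lower 1 (all genes: 8.08% and 10.2%), and the median difference was 0.076. NFE2, the CNC protein of red cell precursors and megakaryocytes, was at 62.7 FPKM in the untreated and at 19.7 FPKM in the bort-treated library, a difference of -1.62. BACH2, a repressor, was at 0.660 and 4.56 FPKM, a difference of 1.75. BACH1, the haem-binding repressor of antioxidant genes, was at 3.90 and 9.67 FPKM, a difference of 1.12 that became 0.67 with the GC trend removed. NFE2L1 and NFE2L2, whose proteins are held down by degradation in unstressed cells, differed by 0.33 and 0.076, and their mRNA says nothing of the protein. In sum, the 4 CNC genes had 88.5 FPKM in the untreated and 50.8 FPKM in the bort-treated library, and the ratio of summed small MAF to summed CNC levels was 0.357 and 0.898. NFE2 made up most of the CNC sum in the untreated library and alone among the 4 CNC genes had a lower value after bort. KEAP1, outside that sum, was at 29.7 FPKM in the untreated and at 17.5 FPKM in the bort-treated library. Its difference of -0.73 became -0.29 with the GC trend removed. NFE2L1 was at 18.3 and 23.2 FPKM, NFE2L2 at 5.48 and 5.83 FPKM, and NFE2L3 at 2.04 and 2.06 FPKM. The CNC genes thus did not fall as a group. The ratio of summed small MAF to summed BACH1 and BACH2 was 6.92 and 3.20. Of the large MAF genes only MAFA was listed, at 0.476 and 0.510 FPKM, and only through the bort-treated library.

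Upstream of AP-1, 1 of the 21 listed MAP kinase genes passed 2-fold, and 6 of the 7 listed genes for their phosphatases did, in both directions. Of 23 kinase genes of the ERK, JNK and p38 cascades 21 were listed. Called higher were 0 and lower 1 (all genes: 8.08% and 10.2%), with a median of 0.20. MAP2K3, a kinase of p38, was the lower one, from 5.46 to 1.70 FPKM, a difference of -1.26 that became -0.86 with the GC trend removed. MAPK13 had the largest positive difference, 0.74, at levels of 0.121 and 0.868 FPKM, and is listed only through the bort-treated library. MAPK8, the gene of JNK1, was at 1.83 and 3.55 FPKM, a difference of 0.69 that became 0.19 with the GC trend removed.

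Of 10 dual-specificity phosphatase genes, whose products switch MAP kinases off, 7 were listed. Called higher were 4 and lower 2 (all genes: 8.08% and 10.2%), with a median of 1.47. DUSP1, itself an immediate early gene, was at 9.74 FPKM in the untreated and at 71.9 FPKM in the bort-treated library, a difference of 2.76, close to that of JUN. DUSP10, a phosphatase of JNK and p38, was at 1.42 and 7.83 FPKM, a difference of 1.87. DUSP5 and DUSP8 differed by 1.47 each. The lower genes were DUSP9, from 7.53 to 1.76 FPKM, and DUSP7, from 3.62 to 1.08 FPKM, with differences of -1.63 and -1.15 that became -0.96 and -0.75 with the GC trend removed. SRF and its partners, which switch on FOS through the serum response element, had 0 of 6 genes past 2-fold in either direction (all genes: 8.08% and 10.2%). ELK1 was highest at 0.60 and SRF lowest at -0.96, and MKL2 is listed only through the bort-treated library. SRF stood at 25.96 FPKM in the untreated and 12.82 FPKM in the bort-treated library, and with a pseudocount of 0.1 FPKM or none it was past 2-fold, so that 1 gene was lower. With the GC trend removed the difference of SRF was -0.50.

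**Figure D4:**
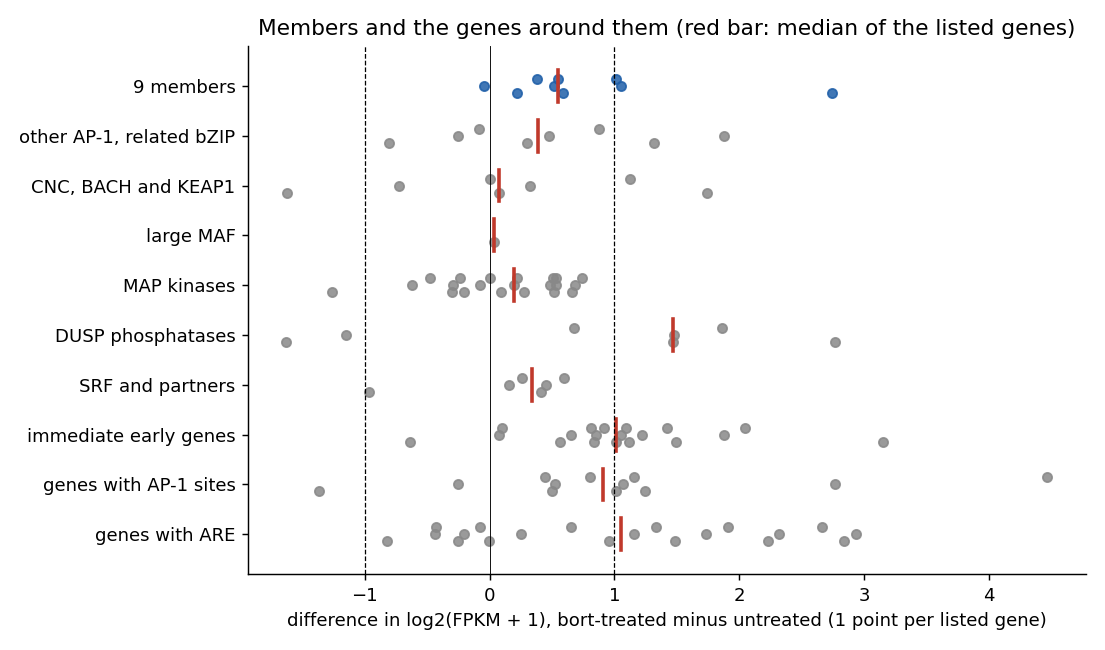
Difference in log2(FPKM + 1), bort-treated minus untreated, for each listed gene of the 9 members and of 9 lists around them, with a red bar at the median of each list and dashed lines at 2-fold. The medians of the phosphatases (1.47), the antioxidant response element genes (1.06) and the immediate early genes (1.01, or 0.97 without KLF2) lie near or past the dashed line at 1, that of the MAP kinases at 0.20.

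The list of immediate early genes outside the rule held 22 genes, among them many with known stress-induced transcription. Of these 19 were listed, 10 were called higher and 0 lower (all genes: 8.08% and 10.2%), and the median was 1.01. KLF6, a zinc finger factor, had the largest difference, from 2.65 to 31.5 FPKM, or 3.16. KLF4 went from 0.857 to 6.69 FPKM, and BTG2, an antiproliferative gene, from 6.66 to 19.5 FPKM. ZFP36 and ZFP36L1, whose products bind AU-rich elements of the kind shown above and promote decay of the mRNA, differed by 1.05 and 1.12. The others past 2-fold were IER3, GADD45B, NR4A2, ATF3 and KLF2, of which KLF2 is listed only through the bort-treated library. Over the 18 genes that reached the listing level in both libraries, 9 were higher (all such genes: 7.95%) and the median was 0.97. The list did not move as a block, for EGR1, the most abundant of the listed genes here, was at 95.5 FPKM in the untreated and at 100.7 FPKM in the bort-treated library, and CYR61 was lowest, from 3.23 to 1.73 FPKM.

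Genes with known AP-1 sites in their promoters were read from a list of 18, of which 12 were listed. By 2-fold or more 6 were higher and 1 lower (all genes: 8.08% and 10.2%), with a median of 0.91. CXCL8, the interleukin-8 gene, had the largest difference, from 0.293 to 27.6 FPKM, or 4.47. CXCL8 and SPP1 are listed only through the bort-treated library. Over the other 10 genes 5 were higher (all such genes: 7.95%) and the median was 0.77. The urokinase gene PLAU went from 1.29 to 3.79 FPKM, the metallothionein gene MT2A from 5.62 to 14.7 FPKM, and the vimentin gene VIM from 125.8 to 254.4 FPKM. VIM, at 1.01, fell short of 2-fold with the GC trend removed (0.96). The cyclin D1 gene CCND1 was the lower one, from 4.99 to 1.32 FPKM, a difference of -1.37. CD44, HMOX1, IL1B, MMP1, MMP9 and TNF were not listed. The remaining genes of this list past 2-fold were DUSP1 and the ferritin heavy chain gene FTH1. An AP-1 site does not make AP-1 the only regulator of any gene on this list, CXCL8 included, and what drove each difference was not tested.

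Of 21 genes with antioxidant response elements bound by CNC and small MAF dimers 20 were listed. Called higher were 10 and lower 0 (all genes: 8.08% and 10.2%), with a median of 1.06. PIR, an iron-binding nuclear protein gene, had the largest difference, from 1.63 to 19.1 FPKM, or 2.93. SQSTM1, the autophagy receptor p62, went from 22.3 to 165.8 FPKM, OSGIN1 from 3.46 to 27.2 FPKM, and SLC7A11, the cystine importer, from 0.656 to 7.26 FPKM. The glutathione synthesis genes GCLM and GCLC differed by 1.91 and 1.34, and NQO1, the classical target of NRF2, by 1.49. ME1, FTL and FTH1 were the others past 2-fold, and the ferritin genes have processed pseudogenes that may share reads with them. The most negative value on this list was that of TALDO1, the transaldolase gene, from 158.0 to 88.7 FPKM, a difference of -0.83. The lists overlap, so DUSP1, ATF3 and FTH1 each count in 2 of them.

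Neighbouring genes limit some of the values. SIRT7 overlaps MAFG on the same strand in GENCODE 29 and was at 12.2 FPKM in the untreated and at 12.7 FPKM in the bort-treated library, so the division of reads between them is uncertain. HOOK2 lies opposite JUNB and PLA2G6 opposite MAFF, at 6.99 and 1.93 FPKM in the untreated library and at 4.49 and 1.43 FPKM in the bort-treated one. TMEM184A lies opposite MAFK and was not listed, and non-coding genes overlap FOSL2 and MAFG. The study's methods describe a stranded kit and the sample labels a TruSeq kit, and whether abundance was estimated by strand is not given in the sources used here. JUN, JUND, FOS and FOSL1 have no overlapping gene in that annotation.

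Across the settings the largest difference stayed with JUN, between 2.73 and 3.07. FOSL1 was past 2-fold under all 8 settings of pseudocount, scaling, filter and GC content, between 1.05 and 1.48. FOSL2 was past it under the 7 that keep it, since the filter of 1 FPKM in both libraries drops both FOSL2 and MAFF. As FOSL2 is listed only through the bort-treated library, its direction was fixed by the listing, and these settings do not test it. FOS stayed between 0.21 and 0.40.

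**Figure D5:**
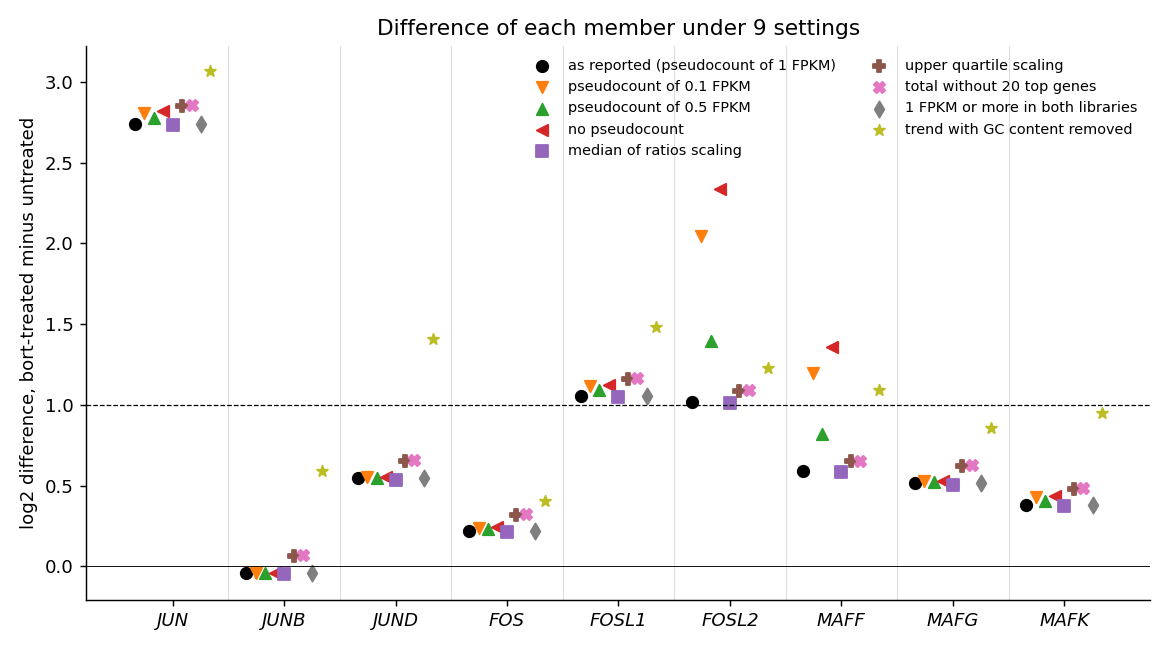
Difference of each member on the log2 scale, bort-treated minus untreated, as reported and under 8 other settings of pseudocount, scaling, filter and GC content, with a dashed line at 2-fold. JUN stays above 2.73, JUNB changes sign, FOSL2 and MAFF rise as the pseudocount shrinks, and JUND passes the line only with the GC trend removed (1.41).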

How the data were processed

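Poly-A RNA of cells labelled THP1 was sequenced in 1 library per condition on an Illumina platform. The authors aligned reads after trimming (HISAT2 2.0.4), reconstructed transcripts (StringTie 1.2.3) and deposited 1 table of FPKM per gene. The submitters' processing notes name GRCh37, and 10864 of 10987 identifiers carry the suffix of annotation mapped to it. The reads behind the values are unknown, so no counting interval is given. Differences were taken in log2(FPKM + 1). Transcript GC content, exons, overlaps and untranslated regions came from GENCODE 29, matched by identifier for 10907 genes (99.3%), without coordinates because the build differs. The GC trend of the differences was subtracted as a lowess curve (span 0.3). Python 3.11.15, numpy 2.4.6, pandas 2.3.3, statsmodels 0.14.6 and matplotlib 3.10.9 were used, and the calculations were tested on simulated data.

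The members and the 9 lists around them (117 genes, 98 of them listed) were chosen with earlier results of these data known. All members are named, and of each list the genes with the largest rise and fall and those past 2-fold. FOSB, MAPK8, NFE2L1, NFE2L2, NFE2L3, KEAP1, EGR1, SPP1, JDP2 and MKL2 were named after their values were seen.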

Additional observations from a re-analysis of the deposited data

How the results depend on the processing

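With 1 library per condition no library could be left out, and no paired analysis was possible because each group has 1 library. The members higher by 2-fold or more were 3 as reported, 5 with the GC trend removed and 1, JUN, at a threshold of 4-fold. FOSL2 among the 3, and FOSL2 and MAFF among the 5, are listed only through the bort-treated library. Their number stayed within 1.5 times under the other settings, with 2 under the filter of 1 FPKM, which keeps 7 members. No setting put a member 2-fold lower. JUNB changed sign with upper quartile scaling (0.064), with the total without the 20 most abundant genes (0.069) and with the GC trend removed (0.59).

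Over all genes 888 were higher and 1125 lower. With a pseudocount of 0.1 FPKM 1576 were higher, without a pseudocount 1654 were higher and 1708 lower, and with the GC trend removed 681 were lower. At 1.5-fold the numbers were 2282 and 2378, at 4-fold 92 and 135. Of all genes past 2-fold, 44.1% were higher as reported, 54.4% with the total without the 20 most abundant genes, 54.1% with upper quartile scaling and 53.0% with the GC trend removed. Of the genes in the 9 lists, counted once, the number lower was 5 as reported, 2 with the GC trend removed, 11 at 1.5-fold and 0 at 4-fold, where 9 were higher. The cause of these changes was not tested, apart from the thresholds, which move counts by construction.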
